A study of Mus musculus with 14 samples.

Results

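En1, En2, Gbx2, Pax2, Pax5, Pax8, Lmx1b, Lbx1 and Tlx3 encode transcription factors that pattern the midbrain and hindbrain. These 9 genes were taken by symbol from the 41934 genes of the deposited RNA sequencing tables, and each symbol had 1 row. Total RNA was sequenced from whole brains of 14 individual male mouse fetuses on a C57BL/6J background, littermates from matings of heterozygous parents. At E13.5 there were 4 Dio3+/+ and 2 Dio3-/- fetuses, and at E18.5 there were 3 Dio3+/+ and 5 Dio3-/- fetuses. Dio3 encodes the type 3 deiodinase, the enzyme that inactivates thyroid hormones, and Dio3-/- fetuses carry an inactivating mutation of it in all cells. The value analysed for each gene and age is the authors' mean normalized count, an average over all libraries of the age in which both genotypes are pooled. It has no value for a single fetus and no spread, so every difference given here is a description without a test. Levels of Dio3+/+ and Dio3-/- brains are not compared here.

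The midbrain-hindbrain boundary, or isthmus, forms where the domain of Otx2 in front meets the domain of Gbx2 behind, and it signals to both sides through Fgf8 and Wnt1. Pax2, Pax5 and Pax8 are closely related paired-box factors, and with the engrailed genes En1 and En2 they act in the territory that becomes midbrain and cerebellum. Lmx1b, a LIM-homeodomain factor, acts at the boundary and later in dopamine and serotonin neurons. Lbx1 and Tlx3 are homeodomain factors of dorsal hindbrain and spinal cord neurons, where Lbx1 marks a class of association neurons and Tlx3 favours an excitatory over an inhibitory fate.

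En1 and En2 are similar in sequence, and so are Pax2, Pax5 and Pax8. Stretches where their coding sequences are much alike are shown to tell how well reads can be assigned to each gene. For the engrailed genes it is the stretch where En1 and En2 are most alike. Each stretch is 150 bases of 1 coding exon (GRCm38, GENCODE M21), written on the strand of the gene, and capitals mark the positions at which the genes differ. In the engrailed genes the stretch lies in the exon that holds the homeobox, exon 2 in both, and 130 of the 150 bases were the same. It spans chr1:120606998-120607147 on the plus strand in En1 and chr5:28170244-28170393 on the plus strand in En2.
En1: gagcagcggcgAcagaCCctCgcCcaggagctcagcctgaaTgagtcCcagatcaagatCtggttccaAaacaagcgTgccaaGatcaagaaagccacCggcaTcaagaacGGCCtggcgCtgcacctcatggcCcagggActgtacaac
En2: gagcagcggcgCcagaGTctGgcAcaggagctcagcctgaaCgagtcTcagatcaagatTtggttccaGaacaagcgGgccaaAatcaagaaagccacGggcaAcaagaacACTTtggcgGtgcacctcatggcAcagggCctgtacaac

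In the Pax genes the stretch is the one where Pax5 and Pax8 together are most like Pax2. The likeness of Pax5 to Pax8 had no part in this choice. It lies in the paired box, which codes for the DNA-binding domain the family is named for. In all 3 genes 113 of the 150 bases were the same. Pax2 and Pax8 shared 127 bases, Pax5 and Pax8 shared 121, and Pax2 and Pax5 shared 120. The stretch spans chr19:44761688-44761837 on the plus strand in exon 3 of Pax2, chr4:44691883-44692032 on the minus strand in exon 3 of Pax5, and chr2:24442988-24443137 on the minus strand in exon 4 of Pax8.
Pax2: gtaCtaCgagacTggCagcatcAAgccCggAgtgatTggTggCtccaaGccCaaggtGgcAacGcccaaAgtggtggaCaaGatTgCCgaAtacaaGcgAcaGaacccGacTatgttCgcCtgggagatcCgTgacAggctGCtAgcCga
Pax5: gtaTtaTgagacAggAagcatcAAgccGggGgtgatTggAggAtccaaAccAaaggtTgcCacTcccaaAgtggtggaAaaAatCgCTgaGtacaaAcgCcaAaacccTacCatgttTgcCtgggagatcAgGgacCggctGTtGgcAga
Pax8: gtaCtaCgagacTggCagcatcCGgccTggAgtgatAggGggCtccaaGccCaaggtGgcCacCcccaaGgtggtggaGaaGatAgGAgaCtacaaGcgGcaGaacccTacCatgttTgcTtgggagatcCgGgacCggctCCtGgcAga
The longest run without a difference was 17 bases between all annotated transcripts of En1 and En2, and 27 bases between those of Pax2 and Pax8. No run of 75 bases, the read length, was shared within either family. The same held for Gbx2 and Gbx1 (longest run 38 bases), Lmx1b and Lmx1a (21), Lbx1 and Lbx2 (20), and Tlx3 and Tlx1 (31) or Tlx2 (32).

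The means of all genes summed to 28582629 at E13.5 and 24565726 at E18.5. To set the ages side by side, each mean was divided by this sum and is given in ppm (parts in 1000000), and differences between ages are log2 ratios of these levels. Each age had a table of its own, whose means were taken to be normalized within that age. The share of Dio3-/- libraries was 33.3% at E13.5 and 62.5% at E18.5. How much of an age difference in a pooled mean comes from this difference in genotype makeup cannot be told and was not tested. In whole brains, fewer cells of a type and less RNA per cell cannot be told apart either. Over the 19455 genes with a mean of at least 10 at one age or both, and above 0 at both, the median log2 difference between ages was -0.07. The pooled mean of Dio3, the targeted gene, was 99.0 at E13.5 and 129 at E18.5. As an average over both genotypes it neither checks the genotype labels nor gives the change with age within a genotype. In wild type brains the study found by qPCR less Dio3 mRNA at E18.5 than at E13.5. By qPCR it also found more Dio3 mRNA in Dio3-/- than in Dio3+/+ brains at each age. The part of genotype makeup in the pooled means of Dio3 was not tested. All 9 forebrain genes examined (among them Tbr1, Lhx2 and Dlx1) had means of at least 10 at both ages.

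All 9 midbrain and hindbrain factors had a lower level at E18.5 than at E13.5, where 54.1% of all genes were lower. Each of the 9 was lower by more than 1 on the log2 scale, and 7.62% of all genes were. Their log2 differences lay between -2.13 for Pax5 and -1.27 for Gbx2, with a median of -1.92. Together the 9 genes made up 361 ppm of the summed means at E13.5 and 102 ppm at E18.5, which is 28.3% of the earlier level. All members passed the minimum mean of 10 at both ages, and the lowest mean was that of Tlx3 at E18.5.

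**Figure D1:**
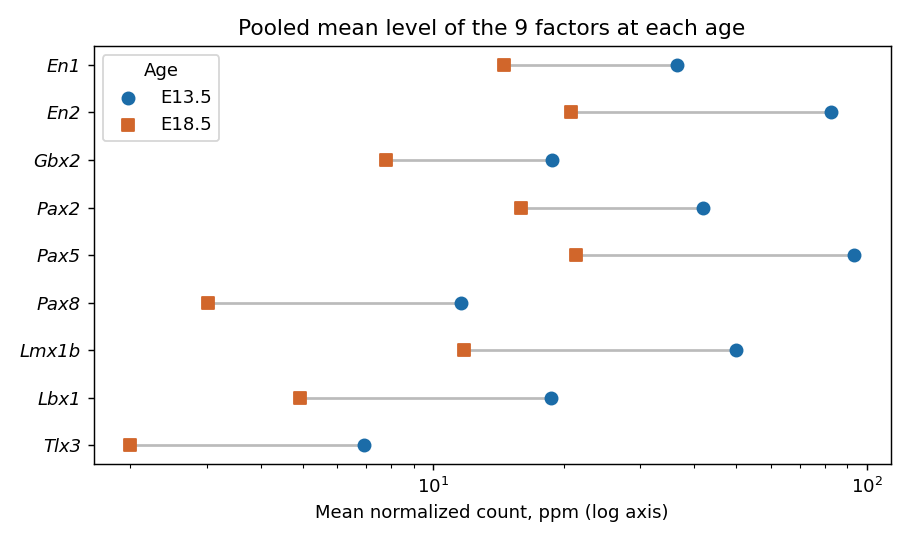
Level of each of the 9 factors, as mean normalized count in ppm on a log axis, at E13.5 (circles) and E18.5 (squares). Each point is a pooled mean over all libraries of the age without an error, and every square lies left of its circle.

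**Figure D2:**
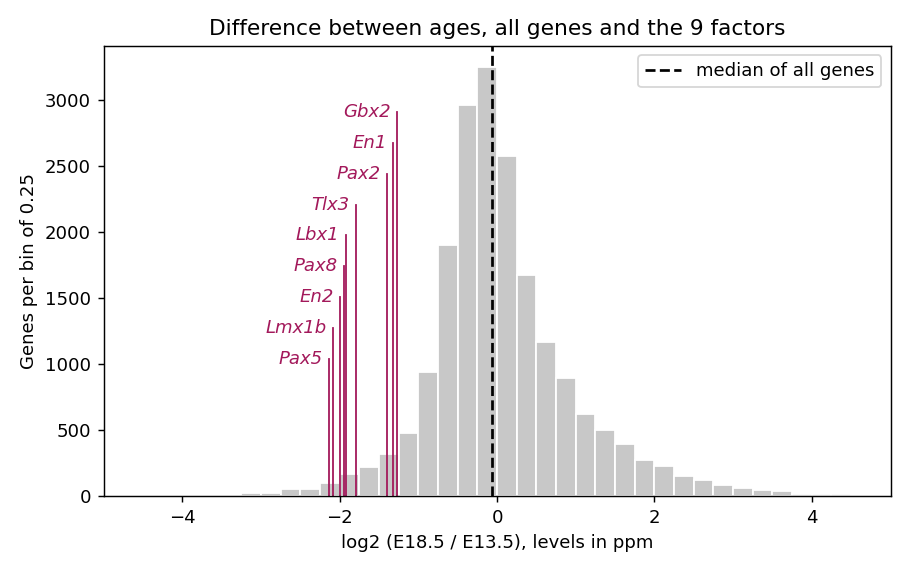
Histogram of the log2 difference in level (ppm) between ages over genes with a mean of at least 10 at one age or both, in bins of 0.25 and drawn from -5 to 5, with 34 genes beyond the axis. The vertical lines mark the 9 factors (their heights carry no value), which lie between -2.13 and -1.27, left of the dashed median of all genes at -0.07.

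Of the engrailed genes, En2 (ENSMUSG00000039095.8, chromosome 5 from 28165694 to 28172166) had a pooled mean of 2367 at E13.5 and 511 at E18.5. This gave a level of 82.8 ppm at the earlier age and 20.8 ppm at the later, a log2 difference of -1.99. En1 (ENSMUSG00000058665.8, chromosome 1 from 120602418 to 120607992) had means of 1041 and 357. The level of En1 was 36.4 ppm at E13.5 and 14.5 ppm at E18.5, a log2 difference of -1.33. En2 was thus at 25.1% of its E13.5 level and En1 at 39.9%. Levels of different genes were compared per kilobase of exon, and on this scale En2 was 1.69 times En1 at E13.5 and 1.06 times at E18.5. With the coding length in place of the exon length these ratios were 2.81 and 1.77, and at either length the log2 ratio of En2 to En1 was lower by the same amount at E18.5 (-0.67). No exon of either gene overlapped an exon of another gene.

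Among the paired-box factors, Pax5 (ENSMUSG00000014030.15, chromosome 4 from 44524757 to 44710487) had the highest mean of the 9 genes, 2674 at E13.5 and 524 at E18.5. Its level was 93.6 and 21.3 ppm, a log2 difference of -2.13, and only 1.21% of all genes had a lower value of this difference. Pax2 (ENSMUSG00000004231.15, chromosome 19 from 44756045 to 44837871) had means of 1200 and 392. These correspond to 42.0 ppm at E13.5 and 15.9 ppm at E18.5, a log2 difference of -1.40. Pax8 (ENSMUSG00000026976.15, chromosome 2 from 24420560 to 24475599), which is also expressed in thyroid and kidney, had means of 332 and 74.0. For Pax8 the level was 11.6 and 3.01 ppm, a log2 difference of -1.94.

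Per kilobase of exon, Pax5 made up 52.2% of the summed level of Pax2, Pax5 and Pax8 at E13.5, Pax2 38.3% and Pax8 9.46%. At E18.5 Pax2 made up 50.3%, Pax5 41.2% and Pax8 8.50%. The ratio of Pax5 to Pax2 was 1.36 at E13.5 and 0.82 at E18.5, so that their order was the opposite at the later age. With the coding length the ratio was 2.37 and 1.42, and Pax5 was above Pax2 at both ages. The log2 difference of the ratio between ages, -0.74, does not depend on the length. Pax8 was the lowest of the 3 genes at both ages with each length tried, and Pax5 exceeded it 5.52-fold at E13.5 and 4.84-fold at E18.5 per kilobase of exon. Small parts of the exons of Pax5 and Pax8 are covered by genes of the opposite strand, 7.18% of Pax5 by 5730488B01Rik, 1.41% by Gm12462, and 6.06% of Pax8 by Gm13415, and reads were counted without regard to strand.

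Gbx2 (ENSMUSG00000034486.8, chromosome 1 from 89927956 to 89931179), which marks the hindbrain side of the boundary, had means of 537 at E13.5 and 191 at E18.5. In ppm its level was 18.8 and 7.79, and its log2 difference of -1.27 was the nearest to 0 among the 9 genes. Otx2, the factor of the midbrain side, had means of 2040 and 549 and a log2 difference of -1.68. Both genes were measured in whole brain, wherever they are expressed, so their ratio does not compare the sides of the boundary. Per kilobase of exon, Otx2 was 1.96 times Gbx2 at E13.5 and 1.48 times at E18.5. This comparison is limited by an overlap: 43.5% of the exon bases of Gbx2 are also exons of D130058E05Rik on the opposite strand, where reads would not be counted on either gene. Over the exon bases of Gbx2 that no other gene covers, a length chosen after the values were seen, the ratio of Otx2 to Gbx2 was 1.11 at E13.5 and 0.84 at E18.5. Other lengths moved it the opposite way, to 3.13 and 2.36 with the longest transcript and to 4.45 and 3.36 with the coding length, so the order of the pair at E18.5 depends on the length. D130058E05Rik itself had means of 60.8 and 25.0.

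Lmx1b (ENSMUSG00000038765.13, chromosome 2 from 33560965 to 33640511) had means of 1429 at E13.5 and 289 at E18.5. Its level of 49.99 ppm at E13.5 and 11.8 ppm at E18.5 gave a log2 difference of -2.09, next to that of Pax5. Its relative Lmx1a, a factor of the roof plate and of midbrain dopamine progenitors, had means of 552 and 136 and a log2 difference of -1.80. Per kilobase of exon Lmx1b was 1.80 times Lmx1a at E13.5 and 1.48 times at E18.5.

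Of the factors of dorsal hindbrain and spinal neurons, Lbx1 (ENSMUSG00000025216.9, chromosome 19 from 45232684 to 45235812) had means of 533 at E13.5 and 121 at E18.5. In ppm Lbx1 was at 18.7 and 4.92, a log2 difference of -1.92. Tlx3 (ENSMUSG00000040610.7, chromosome 11 from 33200752 to 33203589) had the lowest means of the 9 genes, 198 and 49.0. Tlx3 was thus at 6.92 and 1.99 ppm, a log2 difference of -1.79. No exon of Lbx1, Tlx3, Lmx1b or Pax2 overlapped an exon of another gene.

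Lbx1 also marks muscle precursors outside the brain, and Tlx3 is also expressed in sensory ganglia. The markers of skeletal muscle summed to 12.1 ppm at E13.5 and 3.62 at E18.5, and the 4 of 7 with a mean of at least 10 were all lower at E18.5, Myh3 with means of 132 and 19.6. The early muscle regulators Myod1 and Myf5 had means of 9.15 and 2.33 at E13.5. The 6 markers of sensory ganglion summed to 163 ppm at E13.5 and 58.0 at E18.5, all lower at E18.5, though Pou4f1 and Isl1, which are also expressed within the brain, made up most of these sums. The nociceptor channel Scn10a had means of 48.8 and 13.7. The part of these tissues in the values of Lbx1 and Tlx3 was not tested. For the other members, the B lineage markers (a lineage that Pax5 specifies) summed to 0.53 and 0.75 ppm, none of the 6 had a mean of 10 at either age, and Blk was at 0 at E13.5. Otic markers summed to 4.44 and 3.38 ppm, with 2 of 4 genes lower. Thyroid and kidney markers summed to 5.64 and 1.49 ppm, with 1 of 2 lower, Umod at 0 at both ages, and most of the E13.5 sum from Nphs1. Surface ectoderm markers summed to 1.07 and 1.05 ppm, and Trp63 was the only 1 of 5 with a mean of at least 10.

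Ordered by level per kilobase of exon at E13.5, the 9 genes ran from En2 (23.4 ppm per kilobase) over En1 (13.9), Pax5 (10.6), Lmx1b (10.2), Gbx2 (8.63), Pax2 (7.76), Lbx1 (7.51) and Tlx3 (4.51) to Pax8 (1.91). At E18.5 the order was En2 (5.88), En1 (5.54), Gbx2 (3.58), Pax2 (2.95), Lmx1b (2.41), Pax5 (2.41), Lbx1 (1.98), Tlx3 (1.30) and Pax8 (0.50). En2 and En1 stood first and Lbx1, Tlx3 and Pax8 stood last at both ages, while Pax5 and Lmx1b stood before Gbx2 and Pax2 at E13.5 and after them at E18.5. This exchange of places also appeared with the longest transcript but not with the other lengths tried. Without a spread between fetuses it cannot be said which neighbours in these orders differ. With coding length the first place stayed with En2 at both ages, Pax5 came second at both, En1 had rank 5 at E13.5 (30.3) and rank 4 at E18.5 (12.1), Lmx1b stayed above Gbx2 at E18.5 (10.5 against 7.46), and Tlx3 rather than Pax8 came last at E13.5. Over the exon bases that no other gene covers, Gbx2 came second at E13.5 (15.3), before Pax5 and Lmx1b, and first at E18.5 (6.33).

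**Figure D3:**
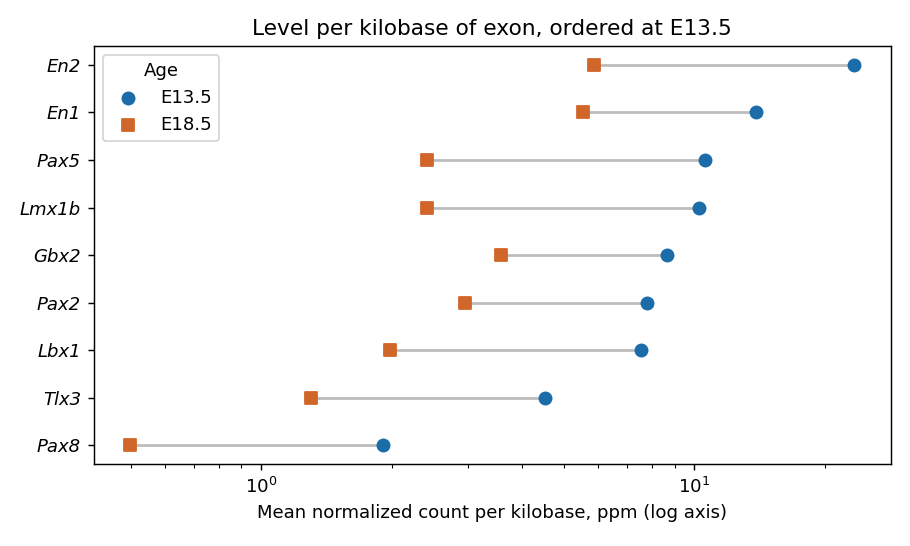
Level of each factor per kilobase of exon, in ppm, on a log axis, with genes in the order of their E13.5 level (circles, E13.5; squares, E18.5). Points are pooled means without an error, and Pax5 and Lmx1b stand below Gbx2 and Pax2 at E18.5 but above them at E13.5.

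Among all genes with reads, the means of the 9 factors lay between the percentiles 64.5 (Tlx3) and 91.5 (Pax5) at E13.5 and between 56.7 (Tlx3) and 76.0 (Pax5) at E18.5. Each of them was at a lower percentile at the later age. With genes of a mean of at least 10 as the reference, the ranges were 40.3 to 85.6 and 24.4 to 58.1.

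The other genes of the same families were followed in a list of 11. Of the 8 with a mean of at least 10, all 8 were lower at E18.5 and 6 were lower by more than 1 on the log2 scale. Their median log2 difference was -2.20. Among all genes 54.1% were lower, the share to set beside the counts of this and each later list. Pax6, a factor of forebrain and cerebellar progenitors, had means of 1833 and 1060 and the difference nearest to 0 in this list, -0.57. Pax3 and Pax7, which mark dorsal progenitors, had differences of -2.54 (means of 1103 and 163) and -1.85 (1285 and 306). Gbx1, the relative of Gbx2, had means of 252 and 118 and a difference of -0.88. Tlx1 had means of 94.4 and 7.73, and per kilobase of exon Tlx3 was 2.92 times Tlx1 at E13.5 and 8.84 times at E18.5. Pax1 and Pax9, which are best known from the skeleton and the pharyngeal pouches, had means of 25.4 and 33.1 at E13.5 and of 1.01 and 3.53 at E18.5. Lbx2, Tlx2 and Pax4 stayed under a mean of 10 at both ages, at 2.43 and 1.10, 9.81 and 0.37, and 0.16 and 0.77.

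Of the 13 isthmic signals and their targets, 7 were lower at E18.5, 5 were higher and Fgf18 was at the same level (2.02 ppm at both ages). The count of 7 is near the share of all genes that were lower, 54.1%. The median log2 difference of the list was -0.36. Fgf18 fell on the lower side, for a count of 8, without scaling, with protein-coding genes as the sum, and without the 100 highest genes in the sum. The signals of the boundary were low in these whole brains: Fgf8 had means of 31.3 and 7.30, Wnt1 of 84.0 and 18.7, and Fgf17 of 126 and 9.92. Their log2 differences were -1.88 for Fgf8, -1.95 for Wnt1 and -3.45 for Fgf17, the lowest of the list. Cnpy1, an endoplasmic reticulum protein that promotes FGF signalling at the isthmus, had means of 1471 and 251 (-2.33). Genes that FGF signalling induces in many tissues (Etv4, Etv5, Dusp6, Spry1, Spry2 and Spry4) were higher at E18.5 in 5 of 6 cases, with Etv4 at means of 110 and 280 (1.56), Etv5 at 590 and 868 (0.78), and Dusp6, the highest of the list at E18.5, at 894 and 989 (0.36). Spry1 was the exception, with means of 558 and 374 (-0.36). Of the 19455 genes compared, 8931 were higher at E18.5.

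Of 10 genes of dorsal hindbrain and spinal association neurons, 8 were lower at E18.5, all by more than 1 on the log2 scale, and the median log2 difference was -2.15. Lhx1, which like Pax2 marks inhibitory association neurons, was the highest at E13.5 with means of 4686 and 903. Gsx1, a progenitor factor, had the lowest difference (-2.61, means of 241 and 34.0). Prrxl1, which is expressed together with Tlx3 in excitatory sensory relay neurons, had means of 377 and 126 (-1.37). The transporters of mature transmitter phenotype were the 2 genes with a higher level at E18.5, Slc17a6 for glutamate with means of 3904 and 4731 (0.50) and Slc6a5 for glycine with means of 527 and 745 (0.72).

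Lmx1b acts in midbrain dopamine and hindbrain serotonin neurons. Of 11 genes listed for these neurons, not all particular to them, 8 were lower at E18.5 and 3 higher, with a median of -1.52. Centred on the median of all genes, 7 were lower, since Nr4a2 lay near 0. Foxa2, a floor plate factor, had the lowest value (-2.59, means of 270 and 38.6), and Gata3, the highest gene of the list at E13.5, had means of 2374 and 590. Fev, the serotonin neuron factor, had means of 104 and 31.1 (-1.52). The dopamine transporter Slc6a3 had means of 23.8 and 99.96, the largest positive difference (2.29), and the serotonin genes Tph2 and Slc6a4 had differences of 0.62 and 0.60. Th, which makes the precursor of dopamine, was lower at E18.5, with means of 236 and 113 (-0.84), and Nr4a2, the highest at E18.5, had means of 1835 and 1545 (-0.03).

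Of 12 rhombomere genes, 10 had a mean of at least 10, and 9 of these were lower at E18.5, with a median of -1.64. Hoxb2 had the lowest difference (-2.25, means of 63.0 and 11.4). Egr2 and Hoxb1, which mark particular rhombomeres early in development, had means of 0.57 and 1.88 at E13.5. Among the 9 forebrain genes, 6 were lower and 3 higher, with a median of -0.37. None was lower by more than 1 under the main scaling, but Lhx2 (-0.998) lay at this limit. Lhx2 passed it without scaling, with protein-coding genes as the sum, and without the 100 highest genes in the sum. These settings moved the list median to -0.59, -0.41 and -0.39. Emx2 (-0.95) also passed the limit without scaling. Without scaling the counts of lower genes were 10 for the rhombomere genes and 7 for the forebrain genes. Tbr1 had the largest positive difference (1.11) and Lhx2, the highest at E13.5, the lowest (-0.998). The ranges of the 9 midbrain and hindbrain factors (-2.13 to -1.27) and of the forebrain genes (-0.998 to 1.11) did not overlap, as the plot by gene list shows. The range of each other list in that plot overlapped that of the 9 factors. It was -4.43 to -0.57 for the other family genes and -2.25 to 0.18 for the rhombomere genes. Of all genes, 54.1% were lower and 7.62% were lower by more than 1. All these lists were described, not tested.

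**Figure D4:**
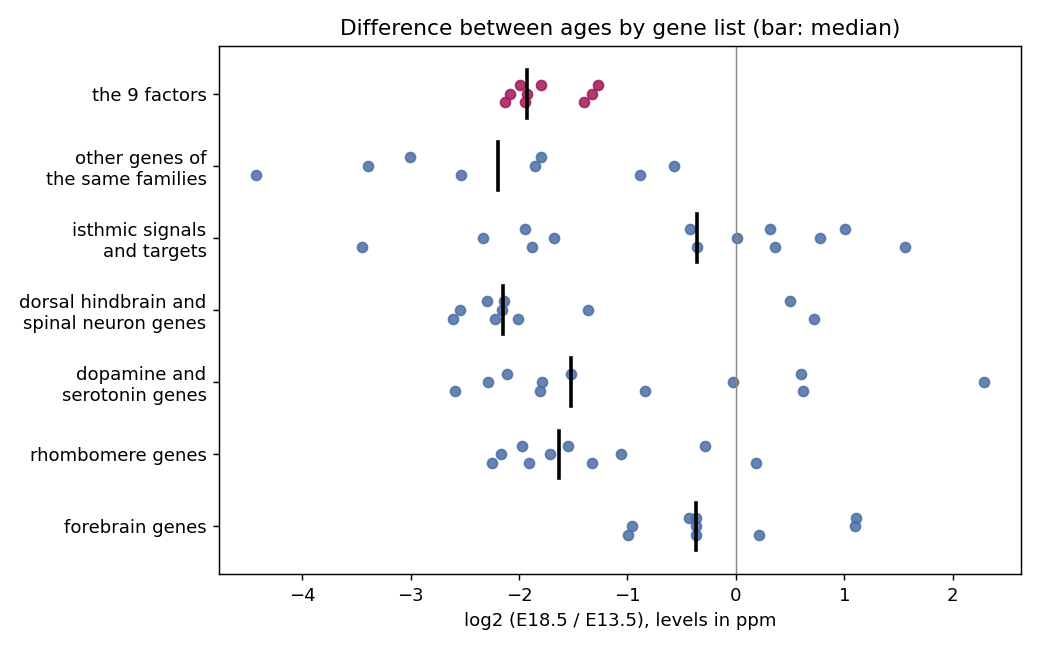
Log2 difference in level (ppm) between E18.5 and E13.5 for each gene with a mean of at least 10 at one age or both, by gene list, with a black bar at each median. The 9 factors lie between -2.13 and -1.27, and the forebrain genes between -0.998 and 1.11. The range of each other list overlaps that of the 9 factors.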

How the data were processed

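Whole fetal brains were sequenced. The authors removed adaptors with cutadapt (3.1), used STAR (2.5.3a) for alignment to GRCm38 with GENCODE VM22, and counted reads per gene with HTSeq, ignoring strand. The authors used ComBat-seq to correct for 2 sequencing batches and DESeq2 (1.30.1) for their comparisons. That each age was normalized on its own is not stated in the sources used here and was taken from there being 1 table per age, with different means. The deposited mean normalized count is a signal, the average over all libraries of an age after division by size factors. The batches differed in sequencing site, ribosomal RNA depletion kit, library preparation and sequencer. How the libraries of each age were split between the batches is not stated in the study. The batch adjustment can change these means, and the part of batch in the age differences was not tested. The other deposited number columns hold the authors' own comparison of genotypes (fold change, its standard error, statistic, p and adjusted p) and were not used. Columns of per-sample values left unused numbered 0, the tables give no depth per library (the methods of the study give a range of aligned reads for the first batch only), and no interval or test was made.

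Each table was taken for the age in its name. Means were scaled to ppm of their sum and, between genes, per kilobase of exon (union of exons in GENCODE M21, a release older than that of the authors, same build). Sequences were read from the M21 transcripts. A minimum mean of 10 was used for lists. Python 3.11.15, numpy 2.4.6 and pandas 2.3.3 were used. The 9 members, the 12 other gene lists and the rule for named genes were chosen with earlier results of these data known. Named were all members and family genes, Dio3, and in each other list the genes with the highest mean and the largest differences, with further genes added after their values were seen. Some genes that this rule selects are named nowhere in the text and not reported here.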

Additional observations from a re-analysis of the deposited data

How the results depend on the processing

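All 9 factors were lower at E18.5, each by more than 1 on the log2 scale, under each of 7 alternatives of scaling, pseudocount and rows per symbol. The alternative of rows per symbol could not change them, since each symbol had 1 row. Each alternative of scaling moved all genes by the same amount. The median difference of the 9 factors lay between -2.14 (no scaling, which moved the median of all genes to -0.28) and -1.65 (a pseudocount of 1 ppm). That pseudocount also moved the median of the other family genes to -1.28 and that of the dopamine and serotonin genes to -0.83. Ratios between genes depended on the length used, by the construction of the ratio. With the longest transcript, Pax5 over Pax8 was 3.41 at E13.5 and 2.99 at E18.5, and Otx2 over Gbx2 was 3.13 and 2.36. With coding length, En2 over En1 was 2.81 and 1.77, Pax5 over Pax2 2.37 and, reversed, 1.42, Pax5 over Pax8 9.42 and 8.27, and Otx2 over Gbx2 4.45 and 3.36. Over exon bases outside other genes, an alternative chosen after seeing the data, Gbx2 over Gbx1 was 6.00 and 4.59, and Otx2 over Gbx2 was 1.11 and, reversed, 0.84. A change of a value by a factor of more than 1.5 was taken as a move, since no replicate spread was at hand. No paired analysis was possible because the tables hold no value per library, and for the same reason no replicate could be left out. The tables give no depth per library, so no limit set by depth is stated.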

Other observations

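Nphs1, listed as a kidney marker for its role in the podocyte slit diaphragm, had a mean of 140.5 at E13.5 and 9.05 at E18.5, a log2 difference of -3.74. No other kidney or thyroid gene of that list had a mean of 10 at E13.5. Oc90, the otic marker with the highest mean at E13.5, had means of 44.5 and 4.50. The tissue that these values come from was not tested, and they were not compared between genotypes.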
